A study of Homo sapiens with 6 samples.

Results

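The kinesins are the motor proteins that walk along, or take apart, microtubules. The 36 kinesin genes described here are those of a fixed list of symbols, 13 of them mitotic (KIF2C, KIF4A, KIF11, KIF14, KIF15, KIF18A, KIF18B, KIF20A, KIF20B, KIF22, KIF23, KIF24 and KIFC1) and 23 grouped as transport kinesins. Members were the probe sets whose annotation names 1 of these genes alone. All 36 genes had such a probe set, 74 in all (19 mitotic and 55 transport), of 19775 genes and 54675 probe sets on the array. The cells were HT29, an established human colon adenocarcinoma line, and the design compared 3 samples labelled NS398-treated with 3 samples labelled control, each hybridised to an Affymetrix HG-U133 Plus 2.0 array. NS398 is a selective inhibitor of cyclooxygenase-2, the inducible enzyme of prostaglandin synthesis. According to the study's methods, the treated cells received the highest of the concentrations tested, the controls received the solvent DMSO, and both groups were kept in serum-free medium during treatment. All samples share this 1 line and have no other alteration in the labels. The study's methods call the samples of a group biological replicates. Nothing in the labels says how cultures were divided among the samples of a group, so that the p-values reflect only how these samples spread.

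A kinesin has a motor domain that hydrolyses ATP on the microtubule, and a tail that binds cargo, a second microtubule or a chromosome. In dividing cells, mitotic kinesins push spindle poles apart, align chromosomes, trim microtubule ends and build the midzone where the cell divides, and many of their genes are transcribed mainly in the G2 and M phases of the cell cycle. Transport kinesins carry vesicles, mitochondria, RNA and ciliary components outward along microtubules in cells that are not dividing as well as in those that are. The class boundary followed the list and is not sharp, since KIF2A, listed with the transport kinesins, also acts at spindle poles, and KIF24, listed with the mitotic ones, acts at the centriole.

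Signals are the deposited linear probe set signals, whose median was between 65.0 and 80.2 on the 6 arrays. Each difference is the mean log2 signal of NS398 arrays less that of control arrays, given with its standard error (SE) from limma. A gene was read from its brightest probe set and was called where the limma test with a variance trend gave an adjusted p under 0.05 over all 54675 probe sets. A mean log2 signal of 7, a signal of 128, was used as the boundary of dim genes, whose signals spread widely between arrays. Directions follow the deposited labels. For the mitotic kinesins and KIF3C they are opposite to the direction in the study's own list of changed genes, and the files used here do not settle which order is right, so that every direction is one between arrays labelled NS398 and arrays labelled control. The ratio of 3' to 5' signal, which rises as RNA degrades, was for ACTB 1.56 ± 0.13 in NS398 arrays and 1.29 ± 0.03 in control arrays (SD, n = 3 each, exact permutation test, two-sided p = 0.1, the smallest this design allows). The GAPDH ratio was 1.10 ± 0.09 in NS398 arrays and 1.03 ± 0.06 in control arrays (SD, n = 3 each, exact permutation p = 0.5). The 18S rRNA signal was 23625, 12397 and 4825 in NS398 arrays, against 3453, 3783 and 4856 in control arrays, so that NS398 replicate 1 was the highest and the groups overlapped (exact permutation p = 0.2). The part of RNA quality in the results below was not tested. Of 11 epithelial markers, 8 had a mean log2 signal above 7 (EPCAM, KRT8, KRT18, KRT19, KRT20, CDH1, VIL1 and CEACAM5), and CDH17, CDX1 and CDX2 were dim. Among them CEACAM5 (17-fold) and KRT20 (2.22-fold) were higher in NS398 arrays and VIL1 (1.63-fold) was lower. KRT19 (-0.39) and CDH1 (-0.21) separated downward without a call. The summed epithelial signal was 133076 to 141773 in NS398 arrays and 109025 to 123727 in control arrays. Above the same boundary were 1 of 10 fibroblast markers (COL1A1), 1 of 8 endothelial markers (PECAM1) and 2 of 8 measured leukocyte markers (LYZ and ITGAM), while the leukocyte markers PTPRC and CD3E were dim. Summed signals of these lists overlapped between the groups, at 916 to 1097 in NS398 arrays and 701 to 992 in control arrays for fibroblast markers, 318 to 376 in NS398 arrays and 257 to 382 in control arrays for endothelial markers, and 28873 to 33891 in NS398 arrays and 25738 to 32590 in control arrays for leukocyte markers, most of it LYZ. Of these other markers only LUM was called, with signals of 328, 166 and 184 in NS398 arrays, against 54.2, 51.7 and 33.6 in control arrays (adjusted p = 0.00514), and THY1 and CD3D separated upward without a call.

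Of the 13 mitotic kinesin genes, 12 (92.3%) were lower in NS398 arrays and none was higher. Of the 23 transport kinesin genes, 1 was lower (KIF3C), 2 were higher (KIF21B and KIF21A) and 20 were not called. Over all 19775 genes, 960 (4.85%) were lower, 1035 (5.23%) were higher and 1995 (10.1%) were called in either direction. Among the 10668 genes with a mean log2 signal above 7, 924 (8.66%) were lower and 967 (9.06%) were higher. The median difference was -1.62 for mitotic kinesins (range -2.70 to 0.35), 0.06 for transport kinesins (range -1.90 to 2.60) and 0.06 for all genes. The 12 called mitotic genes had differences between -2.70 and -0.997, with SE between 0.16 and 0.47. In bulk RNA, fewer cells in division and less of these transcripts per cell cannot be told apart.

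**Figure D1:**
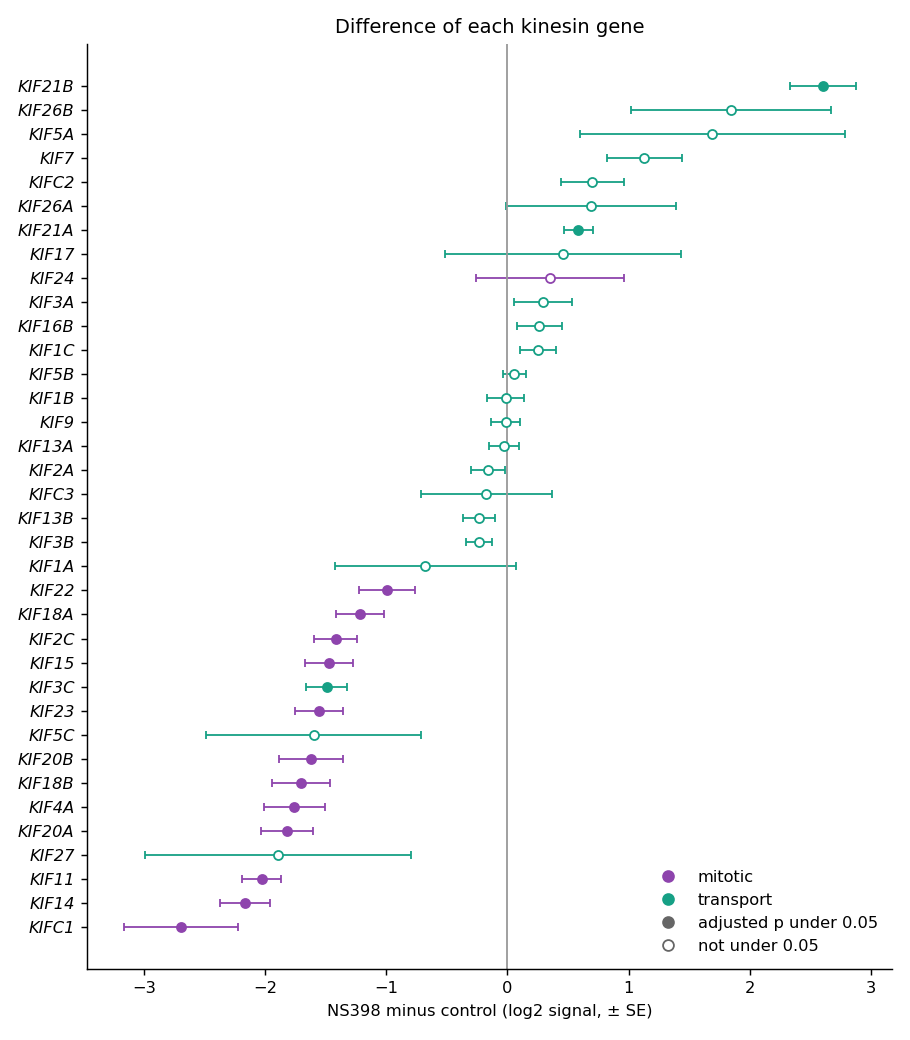
Log2 difference, NS398 minus control, of each of the 36 kinesin genes read from its brightest probe set, with bars of 1 SE of the limma fit and filled points for called genes. The 12 called mitotic genes lie between -2.70 and -0.997, whereas the transport genes lie on both sides of 0 and only KIF21B, KIF21A and KIF3C are called.

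In 12 of 13 mitotic genes every NS398 array was below every control array, a separation that 13.5% of all genes showed in this direction. Among transport genes the arrays separated downward in 2 (KIF3C and KIF3B) and upward in 4 (KIF21B, KIF21A, KIF7 and KIF26B), and 17.2% of all genes separated upward. At the level of probe sets, 15 of the 19 mitotic probe sets were called lower, against 1 of the 55 transport probe sets, with 2 transport probe sets called higher. Of all probe sets, 3513 (6.43%) were called, 1731 (3.17%) lower and 1782 (3.26%) higher (1943 lower and 864 higher after each array was centred on its median), while 10.8% separated downward and 13.4% upward. Calls depended on the variance model. With plain limma, whose prior variance does not follow the signal level, 24 probe sets (0.0439%) were called, and 0 of the 36 kinesin genes were among them. Its lowest adjusted p was 0.0704 for mitotic kinesins and 0.0706 for transport kinesins, and 12 of 13 mitotic genes and 4 of 23 transport genes had an unadjusted p under 0.05, against 3476 (17.6%) of all genes, so that the transport count was close to the share over all genes.

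**Figure D2:**
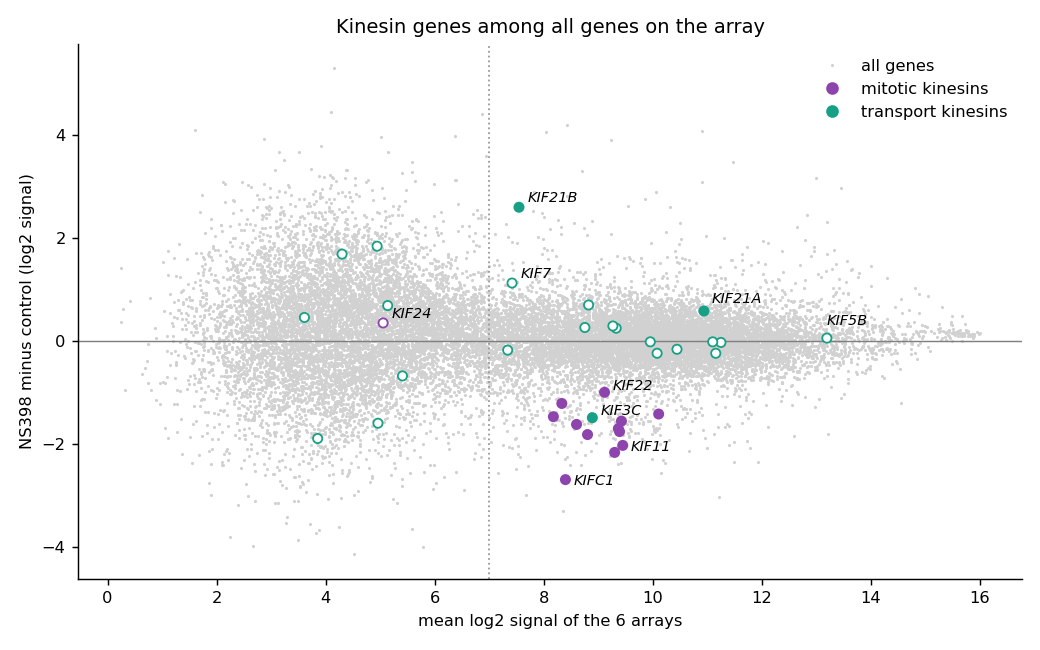
Log2 difference, NS398 minus control, against the mean log2 signal over the 6 arrays for all 19775 genes, with mitotic and transport kinesins marked. The mitotic genes except KIF24 lie below 0 at mean log2 signals above 7, and the 7 dim transport genes lie at the left, where differences of all genes spread most.

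The start of a gene that is expressed in G2 and M often holds a cell cycle genes homology region (CHR), which the MuvB complexes bind, and a CCAAT box, which the factor NF-Y binds. RefSeq promoters of build GRCh38.p14, from 250 bases before to 50 after the start, were searched on both strands for the CHR letters TTTGAA or TTCGAA and for the letters CCAAT, which can share a base at their ends, and a gene with several listed promoters was counted where any of them held the letters. The 160 bases around the start are shown for the 6 called mitotic genes with the smallest p and for the called transport genes KIF3C and KIF21A, so that both classes can be compared, with the motifs in capitals (TTCAAA and ATTGG are the motifs on the other strand). They lie at chr10:92593020-92593179 (KIF11, plus strand), chr1:200620702-200620861 (KIF14, minus strand), chr5:138179002-138179161 (KIF20A, plus strand) and chr1:44739727-44739886 (KIF2C, plus strand). The others lie at chr15:69414239-69414398 (KIF23, plus strand), chr3:44761684-44761843 (KIF15, plus strand), chr2:25982448-25982607 (KIF3C, minus strand) and chr12:39443071-39443230 (KIF21A, minus strand). Each run starts at position -110 from the start and ends at position 50.
KIF11: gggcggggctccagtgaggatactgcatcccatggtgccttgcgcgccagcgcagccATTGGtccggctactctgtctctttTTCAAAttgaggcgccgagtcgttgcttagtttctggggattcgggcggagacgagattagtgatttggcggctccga
KIF14: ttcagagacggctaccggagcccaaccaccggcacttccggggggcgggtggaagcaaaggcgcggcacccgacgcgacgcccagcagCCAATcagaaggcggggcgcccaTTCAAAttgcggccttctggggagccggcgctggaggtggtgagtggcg
KIF20A: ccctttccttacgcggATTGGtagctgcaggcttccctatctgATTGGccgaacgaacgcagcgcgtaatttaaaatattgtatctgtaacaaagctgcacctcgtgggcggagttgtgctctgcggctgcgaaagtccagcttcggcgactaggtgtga
KIF2C: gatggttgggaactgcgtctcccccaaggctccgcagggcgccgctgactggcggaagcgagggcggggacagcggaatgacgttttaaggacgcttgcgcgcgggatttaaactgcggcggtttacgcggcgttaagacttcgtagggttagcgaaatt
KIF23: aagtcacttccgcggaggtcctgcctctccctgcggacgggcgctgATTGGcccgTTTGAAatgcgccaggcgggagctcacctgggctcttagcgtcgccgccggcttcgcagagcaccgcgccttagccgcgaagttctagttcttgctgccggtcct
KIF15: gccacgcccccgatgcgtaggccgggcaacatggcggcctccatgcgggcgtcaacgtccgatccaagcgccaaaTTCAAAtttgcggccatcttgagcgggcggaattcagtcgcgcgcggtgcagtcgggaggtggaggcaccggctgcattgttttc
KIF3C: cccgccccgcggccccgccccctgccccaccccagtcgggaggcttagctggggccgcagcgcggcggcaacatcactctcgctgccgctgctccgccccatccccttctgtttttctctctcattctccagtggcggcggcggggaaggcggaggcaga
KIF21A: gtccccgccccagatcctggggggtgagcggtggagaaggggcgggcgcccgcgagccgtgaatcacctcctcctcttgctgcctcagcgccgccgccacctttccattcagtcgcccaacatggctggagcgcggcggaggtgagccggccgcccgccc

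In KIF11 the CCAAT box lies at position -53 to -49 and the CHR at -28 to -23, in KIF14 they lie at -22 to -18 and 2 to 7, and in KIF23 at -64 to -60 and -55 to -50. KIF20A has a pair of CCAAT boxes, at -94 to -90 and -67 to -63, without a CHR, and KIF15 has a CHR at -35 to -30 without a CCAAT box. The KIF2C, KIF3C and KIF21A windows hold neither. Of the 13 mitotic kinesins, all with a listed promoter, 11 (84.6%) hold a CHR, 11 (84.6%) a CCAAT box and 10 (76.9%) both. Of the 16 transport kinesins with a listed promoter, 1 holds a CHR (KIF5B, 6.25%), 4 hold a CCAAT box (KIF1B, KIF3B, KIF5B and KIF5C, 25%) and 1 holds both. Among all 27305 genes of the table, 19.5% hold a CHR, 39.7% a CCAAT box and 7.85% both. KIF5B and KIF24, which both hold a CHR and a CCAAT box, were not called, and KIF2C, which holds neither, was lower. KIF5A, KIF13B, KIF21B, KIF26B, KIF27, KIFC2 and KIFC3 were not in the promoter table. A match is a description of the letters and not of a bound site.

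**Figure D3:**
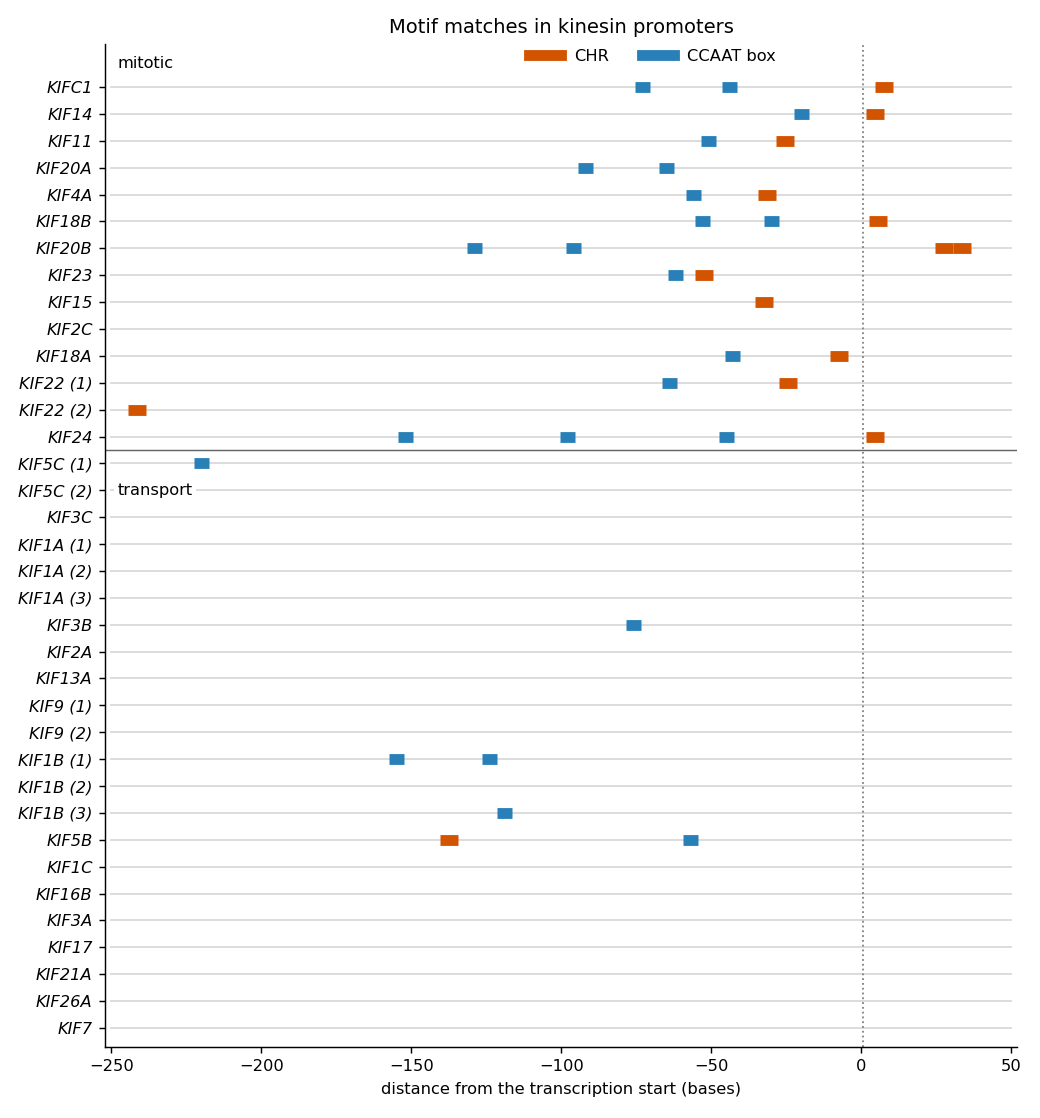
Positions of CHR and CCAAT letters in the 300-base promoters of 13 mitotic and 16 transport kinesins, in bases from the RefSeq start, with a line for each listed promoter, numbered where a gene has several, and mitotic genes above. At least 1 motif is held by 12 of the 13 mitotic genes, and 12 of the 16 transport genes hold none.

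The spindle is held open by plus-end motors that slide opposed microtubules apart. KIF11 (Eg5, probe set 204444_at), the tetrameric motor that separates the poles, had signals of 293, 396 and 358 in NS398 arrays, against 1542, 1261 and 1454 in control arrays. It had the smallest p of the 36 genes, with a difference of -2.03 ± 0.16 (SE) and an adjusted p of 5.39e-05. That is 4.08-fold lower in NS398 arrays. KIF15 (219306_at), which keeps the bipolar spindle open beside KIF11, had signals of 154, 203 and 168 in NS398 arrays, against 505, 445 and 500.5 in control arrays. Its difference was -1.47 ± 0.20 (adjusted p = 0.00135). KIFC1 (HSET, 209680_s_at), the minus-end motor that pulls the other way, focuses spindle poles and clusters surplus centrosomes, had signals of 162, 61.8 and 234 in NS398 arrays and of 1371, 471 and 984 in control arrays. The drop of KIFC1 was the largest among the members, 6.48-fold, and also the least precise of the called ones (-2.70 ± 0.47, adjusted p = 0.00602). Both KIFC1 groups spread widely, with replicate 2 the lowest in each, and they did not overlap.

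Motors of chromosomes and microtubule ends were lower as well. KIF2C (MCAK, 209408_at), which takes apart microtubules at centromeres and so corrects wrong attachments, had signals of 567, 790.2 and 688 in NS398 arrays, against 2185, 1439 and 1877 in control arrays. The difference of KIF2C was -1.42 ± 0.18 (adjusted p = 9.22e-04), and its other probe set, 211519_s_at, was also called, at -1.41. KIF18A (221258_s_at), which damps the swinging of chromosomes at the plate, had signals of 202, 213 and 221 in NS398 arrays and of 604, 449.5 and 437 in control arrays (-1.21 ± 0.20, adjusted p = 0.00397). The NS398 values of KIF18A lay closer together than those of any other called mitotic gene. KIF18B (222039_at), which shortens astral microtubules, had signals of 245, 461 and 437 in NS398 arrays and of 1423, 1063 and 1126 in control arrays (-1.70 ± 0.24, adjusted p = 0.00158). The chromokinesin KIF4A (218355_at), which binds condensin and, with PRC1, sets the length of the midzone, had signals of 245, 480.1 and 413 in NS398 arrays and of 1556, 988 and 1231 in control arrays. KIF4A differed by -1.76 ± 0.25 (adjusted p = 0.00184), a value that is uncertain in its origin because its near-identical copy KIF4B has no probe set of its own. The other chromokinesin, KIF22 (Kid, 202183_s_at), which pushes chromosome arms away from the poles, had signals of 281, 502 and 430.4 in NS398 arrays and of 971, 673 and 738 in control arrays. KIF22 had the smallest drop of the called mitotic genes, -0.997 ± 0.230 (adjusted p = 0.0252), and its other probe set 216969_s_at was called at -1.09. The KIF22 call was lost without NS398 replicate 1 (adjusted p = 0.0872), NS398 replicate 3 (0.0564), control replicate 1 (0.0693) or control replicate 3 (0.0830).

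The motors of cytokinesis were lower too. KIF23 (MKLP1, 204709_s_at), which forms centralspindlin with RACGAP1, had signals of 314, 533 and 387 in NS398 arrays and of 1338, 1162 and 1059 in control arrays (-1.56 ± 0.20, adjusted p = 9.71e-04). A dimmer probe set of KIF23, 244427_at, gave -1.13 with an adjusted p of 0.210. KIF20A (MKLP2, 218755_at), which brings the chromosomal passenger complex to the midzone, had signals of 189, 307 and 233 in NS398 arrays and of 1022, 797 and 729 in control arrays (-1.82 ± 0.22, adjusted p = 6.48e-04). KIF20B (MPP1, 205235_s_at), which acts in the final abscission, had signals of 144, 239.9 and 316 in NS398 arrays and of 789, 598 and 673 in control arrays (-1.62 ± 0.27, adjusted p = 0.00416). The remaining KIF20B probe sets were dim, at 0.30 and -0.94, and neither was called. KIF14 (206364_at), which recruits citron kinase to the midbody, had signals of 228, 363 and 319 in NS398 arrays and of 1592, 1385 and 1086 in control arrays. Its drop of 4.49-fold (-2.17 ± 0.21, adjusted p = 1.70e-04) was second to that of KIFC1, and probe set 236641_at was called at -1.35.

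**Figure D4:**
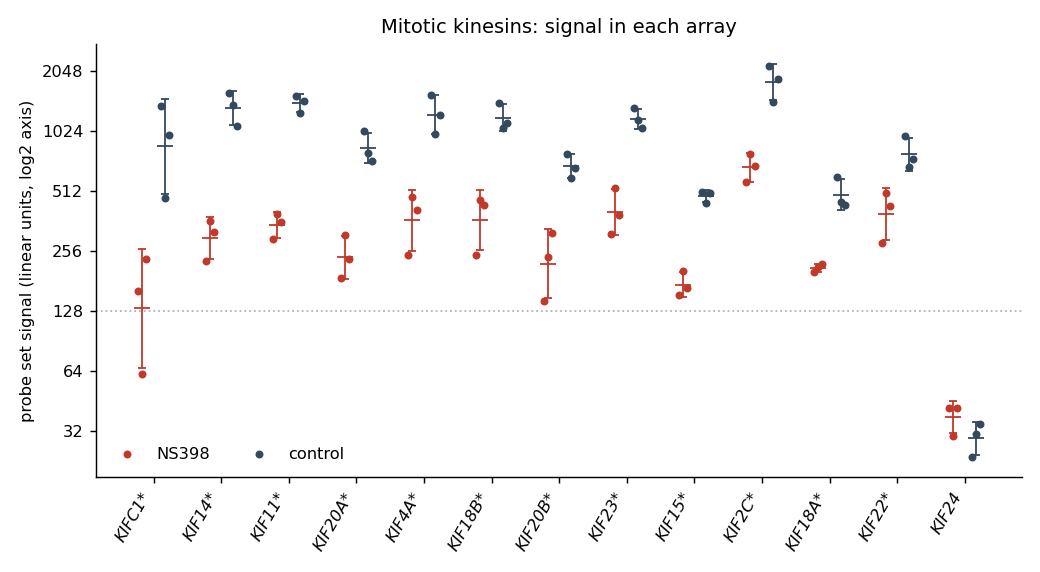
Signals of the 13 mitotic kinesin genes on a log axis, NS398 arrays left of control arrays, with the mean of the log2 signals and bars of 1 SD, n = 3 each, an asterisk at called genes and a dotted line at 128. The arrays do not overlap in 12 genes, and KIF24 lies below the dotted line in all 6 arrays.

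KIF24 (220652_at), which caps the mother centriole and holds back the primary cilium, was the exception. It had signals of 41.8, 30.3 and 41.9 in NS398 arrays and of 23.7, 31.1 and 34.6 in control arrays. All 6 values were dim and the groups overlapped (0.35 ± 0.61, adjusted p = 0.827), and its SE was larger than that of every called mitotic gene. The called mitotic genes shared an order of arrays within each group. NS398 replicate 1 had the lowest of the NS398 signals in 11 of the 12 genes, and NS398 replicate 2 had the highest in 9. Without NS398 replicate 1, 11 of the 12 were called lower. Control replicate 1 had the highest of the control signals in 12 of 12, and control replicate 2 had the lowest in 8. All 12 genes were read from the same 6 RNA samples, so they are not independent of one another.

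Of the 23 transport kinesins, 16 had a mean log2 signal above 7 and 7 were dim. KIF21B (204411_at), a kinesin-4 that paces microtubule growth and is best known from neurons and lymphocytes, was higher in NS398 arrays. Its signals were 454, 409 and 529 in NS398 arrays, against 85.2, 94.5 and 54.3 in control arrays. The control values were all under 128, and the difference was 2.60 ± 0.27 (adjusted p = 3.05e-04), or 6.08-fold. The related KIF21A (226003_at), which binds KANK proteins at the cell cortex, had signals of 2511, 2285 and 2428 in NS398 arrays and of 1454, 1577 and 1803 in control arrays. KIF21A did not overlap between the groups but differed by only 0.58 ± 0.12 (adjusted p = 0.0147), or 1.5-fold. That call was lost without NS398 replicate 1 (adjusted p = 0.0747), 2 (0.0548) or 3 (0.0532) and after centring each array on its median (0.46, adjusted p = 0.148), and its dimmer probe set 231875_at gave 0.56 with an adjusted p of 0.332.

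KIF3C, a partner of KIF3A in the kinesin-2 motor, was the transport gene called lower in NS398 arrays. Probe set 203390_s_at had signals of 245, 317 and 294 in NS398 arrays, against 743, 799 and 854 in control arrays. The groups were far apart and tight, with a difference of -1.49 ± 0.17 (adjusted p = 4.90e-04), or 2.81-fold lower. The dimmer KIF3C probe set 203389_at gave -0.74 with an adjusted p of 0.210. KIF3A and KIF3B, also kinesin-2 genes, form the motor of intraflagellar transport. KIF3A had 676, 593 and 797 in NS398 arrays and 393, 793 and 558 in control arrays (0.29 ± 0.24, adjusted p = 0.582). Its dimmer probe set 213623_at gave 0.35 without overlap between the groups (adjusted p = 0.310).

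**Figure D5:**
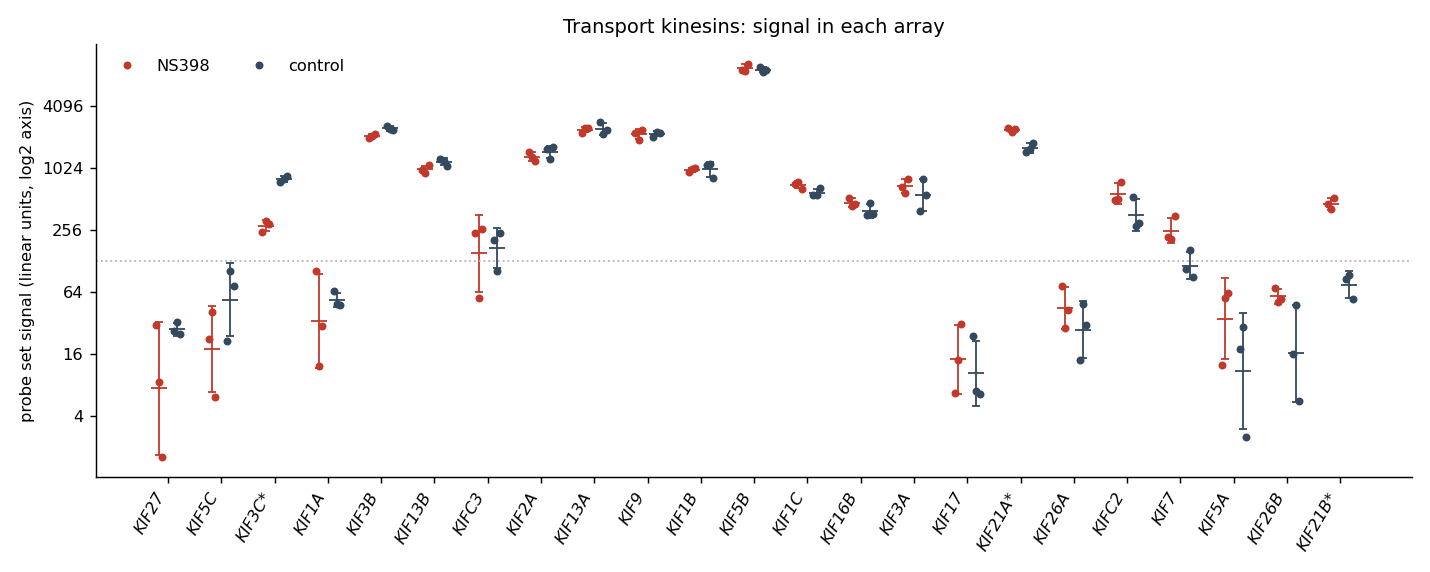
Signals of the 23 transport kinesin genes on a log axis, NS398 arrays left of control arrays, with the mean of the log2 signals and bars of 1 SD, n = 3 each, an asterisk at called genes and a dotted line at 128. KIF21B and KIF21A stand higher in NS398 arrays and KIF3C lower, and the bright genes KIF5B, KIF13A and KIF9 overlap.

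Read from their brightest probe sets, the brightest transport kinesins that were not called had differences of at most 0.24 in size. KIF5B, the ubiquitous heavy chain of conventional kinesin, which carries mitochondria and vesicles, had signals of 9206, 9035 and 10545 in NS398 arrays and of 9749, 8672 and 9203 in control arrays (0.06 ± 0.10, adjusted p = 0.822). KIF13A, an endosomal carrier, had signals of 2265, 2493 and 2499 in NS398 arrays and of 2851, 2182 and 2399.6 in control arrays (-0.03 ± 0.12, adjusted p = 0.944). The groups of both genes overlapped in these probe sets. The dimmer KIF5B probe sets gave -0.16 (224662_at, adjusted p = 0.447) and, without overlap, -0.23 (201992_s_at, adjusted p = 0.430). KIF3B had signals of 2000.4, 2108 and 2206 in NS398 arrays and of 2617, 2452 and 2377 in control arrays (-0.24 ± 0.11, adjusted p = 0.269), without overlap but without a call. KIF9, known from cilia and flagella, was read from 231319_x_at, whose probes may match other transcripts, and had signals of 2257, 1924 and 2404 in NS398 arrays and of 2068, 2305 and 2261 in control arrays (-0.02 ± 0.12, adjusted p = 0.969). The dimmer KIF9 probe sets gave 0.41 (228429_x_at, adjusted p = 0.390), 0.13 (230701_x_at, adjusted p = 0.837) and -0.44 (223778_at, adjusted p = 0.580). The last, the only KIF9 probe set without that suffix, did not overlap between the groups. Over the 13 transport genes above the boundary that were not called, differences ran between -0.24 and 1.13 with a median of -0.02.

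The rest of these 13 genes included KIF1B and KIF1C of the kinesin-3 family at -0.02 and 0.25, KIF13B at -0.24 and the minus-end motor KIFC3 at -0.18 ± 0.54. They also included the early endosome motor KIF16B at 0.26, KIF2A at -0.16, KIFC2 at 0.70 and KIF7 at 1.13. The dimmer KIF16B probe set 232083_at gave 0.62 without overlap between the groups (adjusted p = 0.105). KIF7, which organises the tip of the primary cilium in Hedgehog signalling, is given with its values because it was close to the threshold, a choice made after the values were seen. It had signals of 222, 211 and 348 in NS398 arrays and of 107, 162 and 89.6 in control arrays, without overlap (1.13 ± 0.31, adjusted p = 0.0553). The dim genes were the neuronal motors KIF1A, KIF5A, KIF5C and KIF17 together with KIF26A, KIF26B and KIF27. Their SE was 0.70 to 1.10 and none was called, so that smaller changes of these 7 genes were not detectable here. KIF26B, at 70.7, 51.8 and 54.4 in NS398 arrays and 16, 47.9 and 5.6 in control arrays, did not overlap between the groups (1.85 ± 0.83, adjusted p = 0.262).

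KIF2A, like KIF2C a depolymerase of the kinesin-13 family, had signals of 1458, 1315 and 1199 in NS398 arrays and of 1563, 1260.1 and 1628 in control arrays, which overlapped (-0.16 ± 0.14, adjusted p = 0.623).

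Kinesin genes outside the members were read in the same way. Of the 9 listed, 7 had a probe set of their own and 1 was called. It was CENPE, the kinetochore motor that brings chromosomes to the plate, lower in NS398 arrays (-1.86 ± 0.35, adjusted p = 0.00920). Of the 24 measured spindle and cytokinesis partners of mitotic kinesins, 19 (79.2%) were lower and none was higher. Over all genes 4.85% were lower, and 8.66% of those above the boundary of dim genes. All 24 partners had a negative difference, against 8955 of all 19775 genes, and the partner median was -1.42. The called partners with the smallest p were the microtubule bundler NUSAP1 (-2.02 ± 0.15, adjusted p = 3.05e-05), the spindle pole proteins ASPM (-1.75 ± 0.18) and SPAG5 (-1.96 ± 0.21), and the passenger complex subunits BIRC5 (-2.09 ± 0.24) and AURKB (-1.70 ± 0.21). RACGAP1, the partner of KIF23, was lower by 1.15 and PRC1, the partner of KIF4A, by 1.62 on the log2 scale.

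Partners of transport motors were counted in the same way. Of the 24 measured light chains, adaptors and cargo linkers, 0 were lower and 4 (16.7%) were higher by limma with the variance trend, and the median was 0.11. The count of 4 stands beside 9.06% higher among all genes above the boundary of dim genes, and it was 2 after median centring and 2 with the mean of all probe sets of each gene. These were the mitochondrial adaptor TRAK2 (1.04 ± 0.12, adjusted p = 4.90e-04), the JNK scaffold SPAG9 (0.77 ± 0.12), the kinesin light chain KLC2 (0.89 ± 0.17) and the endosomal adaptor RUFY1 (0.46 ± 0.12, adjusted p = 0.0472). By plain limma 0 of the 24 were called, and 4 had an unadjusted p under 0.05, close to the 17.6% of all genes. Of the 23 measured genes of dynein and dynactin, the motor that runs towards minus ends, 2 were lower, the regulator PAFAH1B1 (-0.57 ± 0.11) and the dynactin subunit DCTN3 (-0.49 ± 0.12), and 1 was higher, NDEL1 (0.63 ± 0.14), with a median of -0.13. The shares were 8.70% lower and 4.35% higher, against 4.85% lower and 5.23% higher over all genes. Above the boundary of dim genes they were 8.66% lower and 9.06% higher. The arrays separated downward in 9 of the 23 genes and upward in 2, against 13.5% and 17.2% of all genes.

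Genes of the complexes that act at the CHR or the CCAAT box were also measured, whether or not each protein contacts these letters itself. Of 16 genes of the MuvB and DREAM complexes, B-MYB, FOXM1 and NF-Y, 6 (37.5%) were lower and none was higher, with a median of -0.44. The share of lower genes was 4.85% over all genes and 8.66% above the boundary of dim genes. MYBL2, which encodes B-MYB and joins MuvB in S phase, had the largest difference (-2.40 ± 0.26, adjusted p = 3.75e-04). FOXM1 came next (-1.81 ± 0.25, adjusted p = 0.00165). Smaller differences were measured for the E2F partners TFDP1 (-0.70 ± 0.11) and TFDP2 (-0.96 ± 0.20) and for RBBP4 (-0.55 ± 0.10). NFYB, a subunit of the CCAAT factor NF-Y, was the last of the 6 (-0.72 ± 0.15, adjusted p = 0.0160). The NF-Y genes NFYA (-0.49 ± 0.14, adjusted p = 0.0642) and NFYC (-0.22 ± 0.14, adjusted p = 0.455) were not called. The MuvB core genes other than RBBP4 were not called. They were LIN9 (-0.39 ± 0.46), LIN37 (0.13 ± 0.17), LIN52 (0.21 ± 0.22) and LIN54 (0.18 ± 0.34), of which LIN54 was dim.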

How the data were processed

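Total RNA of HT29 cells was hybridised, as 3 NS398-treated and 3 control samples, on 1 array each. The deposited values are linear intensity values, 1 signal for every probe set and array, summarised and scaled by the authors. Each array has the same trimmed mean of 500 and its own quantiles, the scale of MAS 5.0 signals, whereas the study's methods describe gcRMA with quantile normalisation. The authors' own comparison of the groups was not used. Scans were not used here, and the number of arrays limits the precision.

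The signals were log2-transformed without an offset and were not normalised again. Probe sets were named by the platform annotation with symbols updated by means of RefSeq gene records. A single gene was named by 41097 (75.2%) of the 54675 probe sets, several by 1801 (3.29%) and none by 11777 (21.5%). A gene was read from its brightest probe set of its own. Differences across all probe sets were tested with lmFit and eBayes (trend and robust) of limma 3.58.1 in R 4.3.3, two-sided, with treatment as the only term and Benjamini-Hochberg adjustment over all 54675 probe sets, threshold 0.05. SAM, named in the study's methods, was not run. The fit was tested on simulated data with differences planted at a mean log2 signal above 7, 50 of each size among 54675 probe sets. With the variance trend it called 2 of 50 at 1.5-fold, 18 of 50 at 2-fold, 38 of 50 at 4-fold and 43 of 50 at 8-fold. Plain limma called 0, 0, 21 and 34 of 50 at these sizes. Far fewer differences were planted than the 3513 probe sets called in the data. That makes the adjustment stricter in the simulation, so these shares do not measure the power of the real fit. Figures were drawn with matplotlib 3.10.9 in Python 3.11.15.

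The members and lists were chosen with earlier results of these data known. Every called member and the 4 brightest members that were not called were named with the value of every array, and up to 5 called genes of each other list with the smallest p. RACGAP1, PRC1, the LIN genes, the NF-Y genes, KIF2A, KIF3A, KIF7 and KIF26B were chosen once the values were known. The alternatives tried were plain eBayes, median centring, quantile normalisation, filters at a mean log2 signal of 4 and 7, an offset of 32, array weights, other choices of probe set, a replicate block, and each array left out.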

Additional observations from a re-analysis of the deposited data

How the results depend on the processing

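The 12 called mitotic kinesins stayed lower in NS398 arrays under every alternative run, between -3.13 and -0.75 on the log2 scale, and 11 to 12 of them were called when 1 array was left out. With plain eBayes no mitotic or transport kinesin was called in either direction (0 genes), nor any gene of the companion lists (0 in each), against 24 probe sets over the array, 5 lower and 19 higher. Median centring, which takes 0.12 from every difference, left 864 probe sets higher, 1 transport kinesin higher (KIF21B), 2 adaptors higher and 0 dynein genes higher. With a gene read as the mean of its probe sets, KIF20B lost its call (-0.75), 1 transport kinesin was higher, 1 adaptor was lower and 2 were higher, and 0 dynein genes were higher. With the brightest probe set without a suffix, KIF23 and KIF3C lost their calls, 0 transport kinesins were lower, the transport median was 0.26, 1 adaptor was lower and 0 dynein genes were higher. Above a mean log2 signal of 7, 5 dynein genes were lower and 2 higher and 1 adaptor was lower. Dynein genes higher numbered 2 also with array weights, above a mean log2 signal of 4 and with quantile normalisation. KIF5B, not called, changed sign with the mean of all probe sets (-0.11), median centring (-0.064), quantile normalisation (-0.0055) and the probe set without a suffix (-0.16), KIF13A with the probe set without a suffix (0.34) and KIF9 with the mean of all probe sets (0.020). The cause was not tested in any of these.

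Leaving out 1 array at a time gave 1826 to 3984 called probe sets (827 to 1964 lower, 894 to 2020 higher). The count fell by more than 1.5 times from 3513 without NS398 replicate 1 (1826), 2 (1896) or 3 (2340) and without control replicate 3 (1876). Transport kinesins higher then numbered 1 to 3, G2 and M factors lower 3 to 7 and higher 0 to 1, dynein genes lower 0 to 4 and higher 0 to 1. The differences ran from -0.012 to 0.10 for KIF5B, -0.11 to 0.079 for KIF13A and -0.084 to 0.077 for KIF9.

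Samples of the 2 groups share replicate numbers, but same-numbered arrays did not deviate together (correlations of -0.137, -0.0633 and -0.104, against -0.0261 to 0.0988 for other pairs). With the replicate block, 2462 probe sets and 11 mitotic kinesins were called (KIF22 lost, adjusted p = 0.0577), with 1 dynein gene lower and 0 higher. Dim signals limit what can be measured, which among the members touches KIF24 and 7 transport kinesins. Small differences of brighter genes can also go uncalled with so few arrays.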
